A study of Rattus norvegicus with 16 samples.

Results

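Sik1 encodes salt-inducible kinase 1, and its transcript was followed in the nucleus basalis of Meynert of stressed and control rats of both sexes. It is 1 of the 32883 gene rows in the count files, Ensembl gene ENSRNOG00000001189, and was chosen by its identifier with its stress values already known. The files hold identifiers only, and the name Sik1 was given with the choice of the row. The values of Sik1 in the 4 groups are therefore a description and carry no test, and their intervals take no account of this choice. The samples are 16 bulk RNA libraries from ChAT::Cre rats on the Long Evans strain, aged at least 70 days. Stressed females, control females, stressed males and control males are represented by 4 libraries each. All groups, controls included, carry this transgene, which puts Cre recombinase under the control of the choline acetyltransferase gene. The series text abbreviates the stress regimen as VS, and the labels do not say whether each library came from a separate animal. The labelled nucleus could not be checked against cholinergic markers, because the identifiers were not paired with gene symbols.

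SIK1 is a serine/threonine kinase related to the energy sensor AMPK, and it was first found in the adrenal glands of rats on a high-salt diet. The kinase LKB1 activates it, and cAMP-dependent protein kinase (PKA) restrains it by phosphorylation. Active SIK1 phosphorylates the CRTC coactivators and the class IIa histone deacetylases and holds them in the cytoplasm. Keeping CRTC out of the nucleus dampens transcription through CREB, while keeping out the deacetylases, which repress MEF2 factors, relieves that repression. The Sik1 gene is itself a target of CREB, so that cAMP and calcium signals raise the transcript of a kinase that limits the same response. In the hypothalamus SIK1 is known for curbing transcription of corticotropin-releasing hormone and the resetting of the circadian clock by light.

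On the build Rnor_6.0 the gene lies on the minus strand of chromosome 20, from 10668411 to 10680283, a span of 11873 bases. The count files give it 14 exons with 4984 exonic bases in all. The last exon, from 10668411 to 10671340, holds 2930 of them. No other annotated gene overlaps the span (0 genes), so its counts are not shared with an overlapping or antisense gene of this annotation. RefSeq places a gene of the symbol Sik1 on chromosome 20 as well, also on the minus strand, with a length of 11626 bases in the build GRCr8. In that annotation its nearest protein-coding neighbours are Cryaa, a lens crystallin gene, and Hsf2bp.

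The promoter is shown because Sik1 is known as a CREB target and its level differed between the groups. The window from RefSeq runs from 250 bases before the gene's start to 50 bases after it, at chr20:9958597-9958896 on the minus strand of GRCr8. It is printed 5′ to 3′, with matches to the short form of the cAMP response element (CRE), TGACG or its reverse complement CGTCA, in capitals.
Sik1 promoter: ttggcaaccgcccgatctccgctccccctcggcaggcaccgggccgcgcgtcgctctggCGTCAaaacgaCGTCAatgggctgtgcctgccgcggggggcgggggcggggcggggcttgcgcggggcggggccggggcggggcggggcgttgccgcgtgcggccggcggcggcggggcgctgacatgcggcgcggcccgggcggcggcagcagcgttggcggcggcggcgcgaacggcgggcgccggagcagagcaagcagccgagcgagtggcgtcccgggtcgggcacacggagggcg

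The window holds 2 short CRE motifs, at -191 to -187 and at -180 to -176, counted from -1 at the base before the start. Both read CGTCA on this strand. Of 33469 RefSeq rat promoters of this length, 21.2% hold at least 1 short CRE motif on either strand and 4.96% hold 2 or more. The full palindromic element TGACGTCA is at 0 places in the Sik1 window and in 1.83% of all windows. The glucocorticoid response element core TGTTCT or AGAACA is at 0 places (20.7% of windows hold it), and the TATA motif TATAAA at 0 places (14.2% hold it on either strand). The GC box GGGCGG is at 8 places over both strands, overlapping matches included, a count that 0.233% of windows reach. The Sik1 window is 81.3% G or C, where the median window has 51.7% and 99.4% of windows have less than Sik1. The shares above are over all windows and were not matched for G and C content. Its paralogs Sik2 and Sik3 have 2 and 3 short CRE motifs in their own windows. These matches are letters in a window, and binding was not measured.

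Library sizes and counting bear on every Sik1 value. Counts assigned to genes were 22.7 to 38.2 M in the 13 libraries counted with HTSeq and 63.1 to 73.8 M in the 3 counted with featureCounts, namely male stress 1 and library 4 of each control group. Each mate of a pair was counted on its own in the latter. Mitochondrial genes took 64.2% to 82.5% of the counts. Sik1 received 44 to 193 counts per HTSeq library, so that counting error alone was 7.20% to 15.1% of a library's value. The lowest count, 44 in female control 2, has an exact 95% Poisson interval of 32.0 to 59.1 counts, and the highest of the HTSeq libraries, 193 in female stress 4, one of 166.7 to 222.2. These intervals cover counting error only. The 3 featureCounts libraries had 126 to 296 counts of Sik1, for which no interval is given because the mates of a pair are not independent. Levels are given in counts per M counts (CPM) after normalisation by trimmed means (TMM).

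Sik1 was higher in stressed than in control rats of both sexes, and in these libraries the fold difference was larger in females. In stressed females the level was 5.55, 5.30, 5.27 and 5.83 CPM in libraries 1 to 4. In control females it was 2.18, 1.83, 2.58 and 1.42 CPM. The 4 stressed females lay close together and all above the 4 controls, and the closest pair still differed 2.04-fold. In 1.72% of the 14241 genes tested, all stressed females lay above all control females. The mean was 5.49 ± 0.26 CPM (SD, n = 4) against 2.00 ± 0.49 CPM, a 2.78-fold difference (log2 fold change 1.47, SE 0.19, 95% interval 1.09 to 1.86). In bulk RNA, a change in the number of cells that express Sik1 and a change in its RNA per cell cannot be told apart.

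In stressed males the level was 5.60, 4.22, 5.45 and 4.23 CPM in libraries 1 to 4. In control males it was 2.77, 3.31, 2.96 and 3.70 CPM. Libraries 1 and 3 of the stressed males were as high as the stressed females, while libraries 2 and 4 were lower but still above every male control. The closest pair, male stress 2 and male control 4, differed 1.14-fold, and in 2.96% of the genes tested all stressed males lay above all control males. The mean was 4.88 ± 0.75 CPM (SD, n = 4) against 3.18 ± 0.41 CPM, a 1.53-fold difference (log2 fold change 0.62, SE 0.18, 95% interval 0.25 to 0.99). Sik1 is among the 0.14% of tested genes (20 genes) in which all stressed libraries lay above all controls in both sexes.

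**Figure D1:**
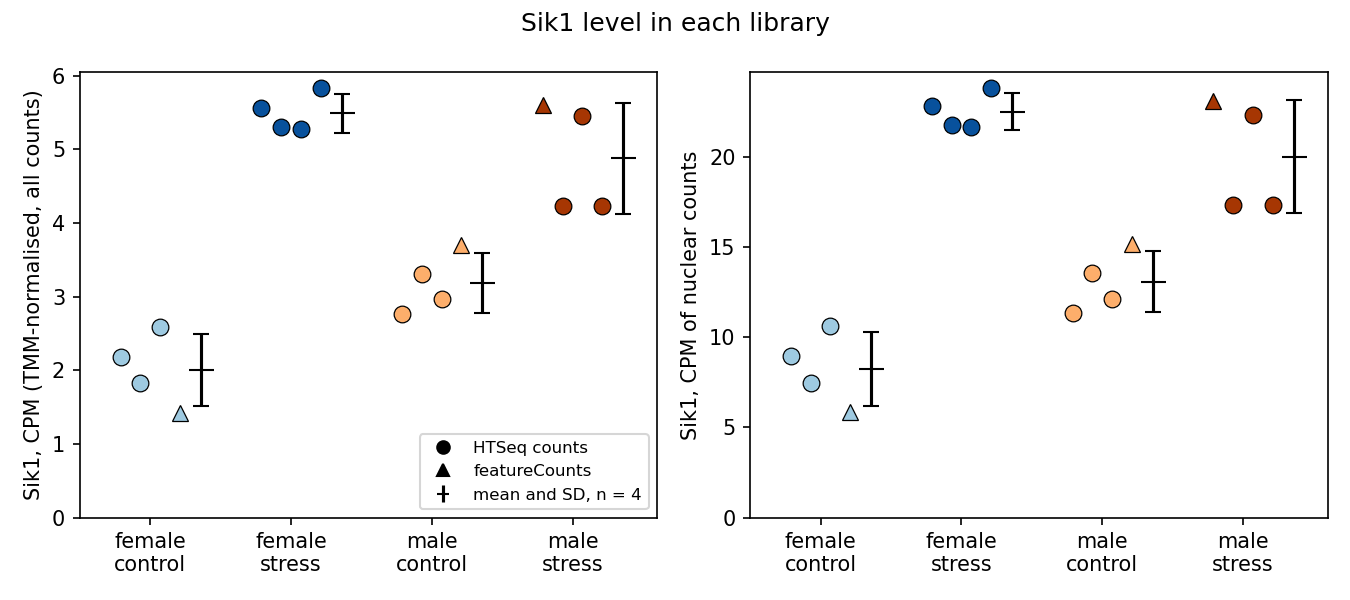
Sik1 level per library in CPM of all counts after TMM normalisation (left) and in CPM of nuclear counts (right), by group. Circles are libraries counted with HTSeq, triangles those counted with featureCounts, and bars the mean and SD over 4 libraries. On both scales the stressed libraries lie above the controls of their sex, and the female controls are the lowest group. The scales are nearly proportional, so the right plot is no separate support.

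The groups ranked from female control (2.00 CPM) over male control (3.18 CPM) and male stress (4.88 CPM) to female stress (5.49 CPM). The 2 stressed groups, neighbours at the top, did not differ beyond their spread. Their means were 0.610 CPM apart, less than the SD of 0.753 CPM among stressed males, and stressed females were higher in 11 of 16 pairs of libraries. The log2 difference, females minus males, was 0.16 (SE 0.18, 95% interval -0.20 to 0.53). The 2 control groups did not overlap, since the lowest male control (2.77 CPM) lay just above the highest female control (2.58 CPM). In 1.66% of tested genes all male controls lay above all female controls. The log2 difference in controls, females minus males, was -0.69 (SE 0.19, 95% interval -1.08 to -0.30).

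The difference between control females and control males was smaller among the HTSeq libraries. Female control 4, the lowest library of all, and male control 4, the highest control, were both counted with featureCounts. Without the 3 featureCounts libraries the means were 2.20 ± 0.38 CPM (SD, n = 3) in female and 3.01 ± 0.27 CPM in male controls, and the log2 difference was -0.45 (SE 0.20). The male controls were still higher in all 9 of 9 pairs of HTSeq libraries. Female control 4 also had the lowest mitochondrial share (64.2%). Over all 16 libraries the log2 difference was -0.69 (SE 0.19) with the counting program as a covariate and -0.69 (SE 0.19) in nuclear counts only. Neither fit can show how far female control 4 and male control 4 widen the difference. Both control groups hold equally many featureCounts libraries, so a shift common to them nearly cancels. CPM of nuclear counts is nearly a rescaling of CPM of all counts.

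The stress difference of Sik1, female minus male, was 0.86 on the log2 scale (SE 0.26, 95% interval 0.32 to 1.39). It joins 2 parts, the lower level of control females and the slightly higher level of stressed females. Without the featureCounts libraries it was 0.68 (SE 0.26), with log2 fold changes of 1.31 (SE 0.18) in females and 0.63 (SE 0.19) in males. Over all genes the edgeR quasi-likelihood test called 0 of 14241 for a stress effect that differs between the sexes. By the same test 571 (4.01%) had an unadjusted p under 0.05. After adjustment DESeq2 called 1 and limma voom 0.

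**Figure D2:**
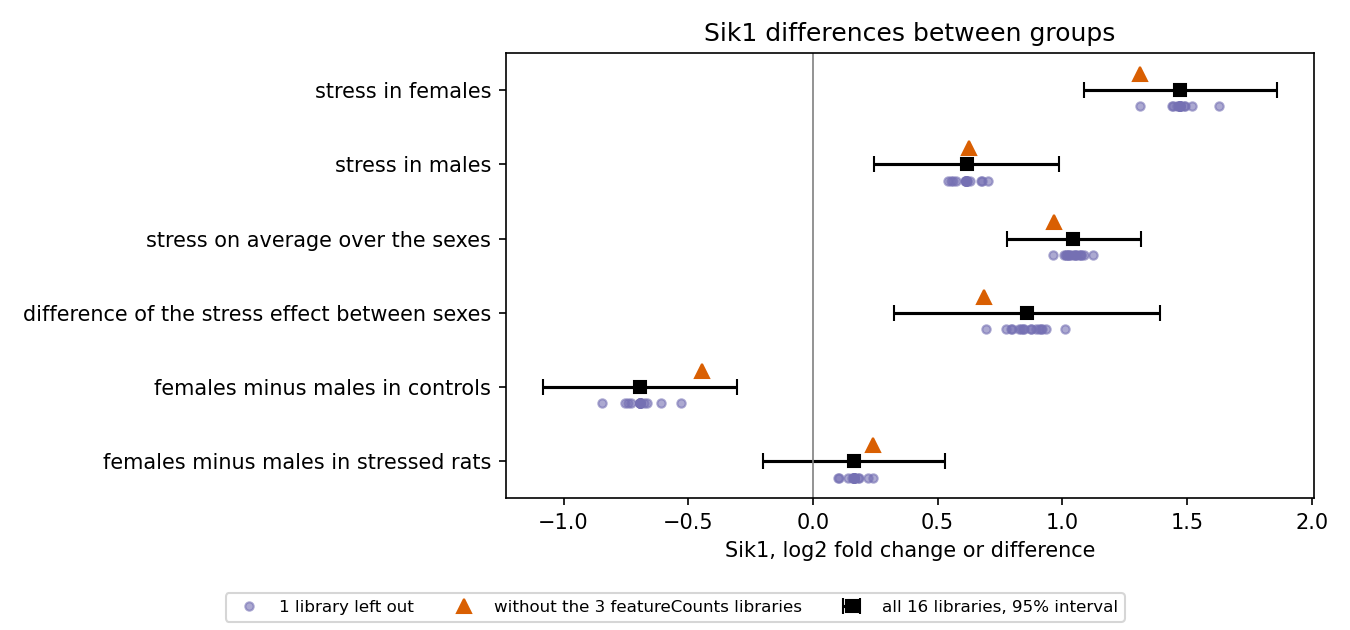
Log2 fold change or difference of Sik1 for 6 contrasts of the 4 groups. Squares with bars are estimates from all 16 libraries with 95% intervals, triangles leave out the 3 featureCounts libraries, and dots leave out 1 library each. The stress contrasts stay positive in every fit shown, from 1.31 to 1.63 in females and from 0.54 to 0.70 in males with 1 library left out.

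The spread of Sik1 within groups was uneven. Among stressed females the coefficient of variation was 4.76%, below the 7.28% that counting alone gives at these counts. In the other groups counting error is known only for the 3 HTSeq libraries of each. There the coefficient of variation was 17.2% against 13.0% from counting in control females, 15.3% against 8.50% in stressed males and 9.07% against 9.71% in control males. Over all 4 libraries it was 24.7%, 15.4% and 12.9% in these groups. The fitted biological coefficient of variation of Sik1 was 0.169, and that of the median gene was 0.185. Groups this small give a rough SD, and the difference in spread was not tested.

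Leaving out the mitochondrial counts rescaled Sik1 almost evenly across libraries. The TMM factors already followed the mitochondrial share, from 1.401 in female control 4 (64.2%) to 0.717 in male stress 1 (82.5%). Similar group differences on both scales are therefore no separate support. In CPM of nuclear counts alone Sik1 had 22.5 ± 1.0 in stressed females against 8.24 ± 2.0 in their controls, and 20.0 ± 3.1 in stressed males against 13.1 ± 1.7 in theirs (SD, n = 4). A fit to nuclear counts gave log2 fold changes of 1.47 in females and 0.62 in males. Some libraries differed from their group in other ways. Female stress 4, where 45.0% of the reads assigned to 1 gene or to none fell outside genes, against 21.4% to 24.6% in the other stressed females, had 5.83 CPM. Female control 2 and male stress 4, with 40.8% and 38.8% of entries not aligned against 13.2% to 15.4% in the other HTSeq libraries, had 1.83 and 4.23 CPM.

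Sik1 was a gene of modest abundance in this tissue. Its mean over all libraries was 3.89 CPM, higher than in 47.5% of tested genes. Per kb of exon length the mean was 0.780 CPM, higher than in 28.1% of tested genes, where the median gene had 2.02 CPM per kb. Per length it went from 0.402 ± 0.099 to 1.10 ± 0.052 CPM per kb in females and from 0.639 ± 0.082 to 0.978 ± 0.15 CPM per kb in males (SD, n = 4), below that median in every group. By the size of its rise Sik1 ranked 55 of 14241 genes in females and 505 in males.

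The genes around Sik1 on chromosome 20 were measured in the same fit, and the choice of Sik1 did not use them. Within 500 kb of its span 26 other genes are annotated, of which 12 passed the filter on low counts and 14 did not. Of those 14, 7 had 0 counts in every library. Also among the 14 was the nearest annotated gene, 0.3 kb away at 10680622 to 10684291 on the same strand. It had 128 counts over all libraries together and was not tested. By the edgeR quasi-likelihood test 0 of the 12 were called for stress in females and 0 in males, where 0.0632% and 0.119% of all tested genes were called. At an unadjusted p under 0.05 there were 2 of 12 in females and 2 in males, beside 6.48% and 7.70% of all tested genes, and DESeq2 and limma voom each called 0 in either sex. Nor was any called on average over the sexes (0 of 12, background 0.337%), with 3 at an unadjusted p under 0.05 beside 10.2% of all tested genes. All groups of stressed and control females overlapped for the 12 genes (0 without overlap, background 3.31%), and in males 2 of 12 had no overlap (background 5.27%).

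The median log2 fold change of the 12 neighbours was -0.06 in females and 0.03 in males, beside medians of 0.01 and 0.00 over all genes tested. Their fold changes ran from -0.42 to 0.70 in females and from -0.40 to 0.47 in males. Sik1 lay above all of them in both sexes, but it was chosen with its stress values known, so this order carries no test. In males the highest neighbour value, 0.47 (SE 0.30), was close to the 0.62 (SE 0.18) of Sik1. The nearest tested gene on one side, 164 kb away at 10844266 to 10869821, had log2 fold changes of -0.08 (SE 0.16) in females and -0.23 (SE 0.16) in males. The nearest on the other side, 260.9 kb away at 10396621 to 10407554, had -0.42 (SE 0.17) and -0.03 (SE 0.17). The neighbour with the highest value, at 10930518 to 10952391, had 0.70 (SE 0.31) in females and 0.47 (SE 0.30) in males. It had a mean of 1.37 CPM and was not called (adjusted p = 0.755 and 0.752 by edgeR), and was singled out after its values were seen.

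**Figure D3:**
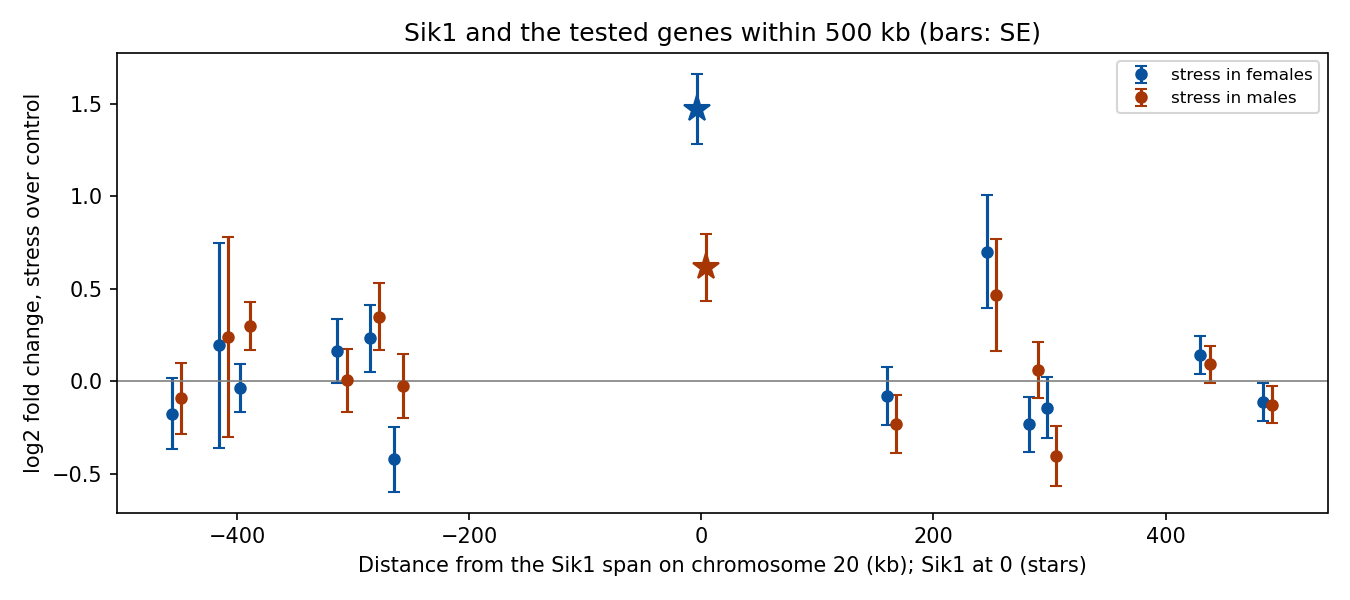
Log2 fold change of stress over control for Sik1 (stars) and the 12 tested genes within 500 kb on chromosome 20, against distance in kb from the Sik1 span. Blue is females, brown is males, and bars are SE. The neighbours lie between -0.42 and 0.70, below Sik1 at 1.47 in females and 0.62 in males, compared within each sex. Sik1 was chosen with its stress values known, so this order carries no test.

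Genes with a pattern like that of Sik1 were ranked by Pearson's r of log2(CPM + 0.5) over the 16 libraries, among the 11096 other genes whose mean reached 1 CPM. The median r was -0.01, with 6 genes above 0.8 and 11 below -0.8. The libraries share their group means, so r reflects mostly the order of the 4 groups and is given as a description. The files give these genes no names, and the first 2 are shown by identifier.

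The closest was ENSRNOG00000010119, on the minus strand of chromosome 2 at 118721334 to 118745766, with r = 0.91 and Spearman's rho = 0.89 over 16 libraries. Its level was 2.11 ± 0.23 CPM in stressed females against 0.908 ± 0.29 CPM in their controls, and 1.88 ± 0.15 CPM in stressed males against 1.45 ± 0.31 CPM in theirs (SD, n = 4). As for Sik1, female controls were the lowest group and the stressed groups overlapped. Unlike for Sik1, stressed and control males overlapped, with 1.68 CPM in the lowest stressed male and 1.78 CPM in the highest control male. Also unlike for Sik1, the control groups overlapped, with 1.035 CPM in the lowest control male and 1.34 CPM in the highest control female. Without the 2 libraries farthest from the median of Sik1, female control 4 and female control 2, r was 0.86, and in the 13 HTSeq libraries it was 0.89. With the group means taken out it was 0.46.

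The second was ENSRNOG00000007830, a gene of 1 exon on the plus strand of chromosome 4 at 168752133 to 168755023, with r = 0.88 and rho = 0.88. Its level was 13.0 ± 2.4 CPM in stressed females against 1.16 ± 0.39 CPM in their controls, and 13.3 ± 4.7 CPM in stressed males against 1.64 ± 0.34 CPM in theirs (SD, n = 4). Its range was far wider than that of Sik1, with no overlap of stressed and control libraries. Without the same 2 libraries r was 0.92 and in the HTSeq libraries 0.93, but with the group means taken out it was 0.15. Over the 8 closest genes r was 0.78 to 0.91, and 0.07 to 0.50 with the group means taken out, a drop that choosing them by r over all libraries favours.

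**Figure D4:**
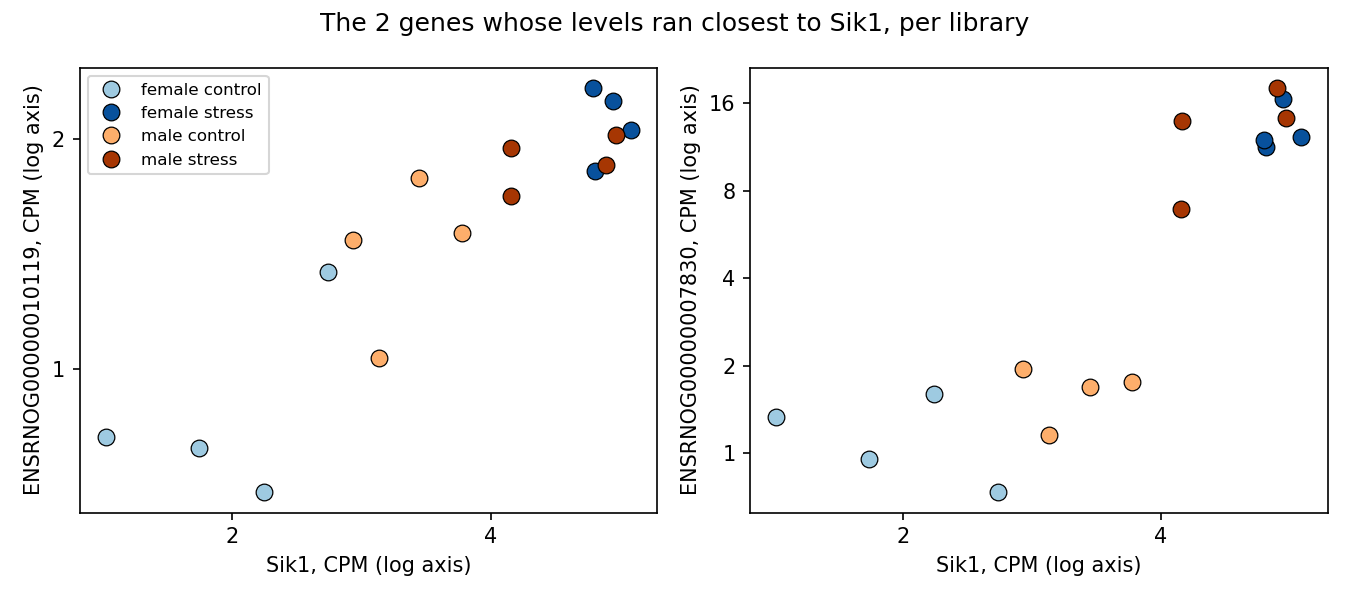
CPM of the 2 genes closest in pattern to Sik1 against CPM of Sik1, 1 point per library, both axes on a log scale, coloured by group. In the left plot the libraries run from the female controls at the low end to the stressed groups at the high end, and in the right plot the stressed and control libraries form separate clouds.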

How the data were processed

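Per the labels' protocols, RNA of the nucleus basalis of Meynert was read in pairs of 75 bp, with 130 M reads stated per sample. The authors deposited unnormalised counts for each Ensembl gene. Per the submitters' processing notes STAR 2.5.2a, HTSeq, bedtools, DESeq and limma were used on Rnor_6.0. Per the file headers, 3 libraries were counted with featureCounts 1.6.1 and Ensembl release 92, without strand. The strand setting of the other 13 is not given in the sources used here. Lines of the HTSeq files that name no gene (44.8% to 64.7% of entries) stayed out.

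The 16 libraries were fitted as 4 group means with edgeR 4.0.16 in R 4.3.3 (TMM, filterByExpr, robust quasi-likelihood), with Benjamini-Hochberg adjustment over 14241 genes at 0.05. The fit was also run on counts simulated from its own means and dispersions, with changes set in stressed females only. Those counts were given no effect of the counting program, so that run does not test how well the model suits these libraries. Alternatives used DESeq2 1.42.0, limma 3.58.1, other factors, filters and libraries. Log2 fold changes, their SE and intervals come from the fit. The p-values set a group difference against the spread between libraries, which may be technical. Replicates were numbered in accession order. For stressed females, title and count file numbers differ, which changes no group.

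Of 47357 RefSeq genes (GRCr8), 0 carry an Ensembl identifier, so gene lists by symbol, for the kinase's pathway and for cell types, could not be applied. Named are Sik1, its neighbours within 500 kb (the nearest tested on each side), and the genes most like it by r, of which 2 are shown. Members, lists and rules were chosen with earlier results of these data known.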

Additional observations from a re-analysis of the deposited data

Results flagged for a closer look

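In 28 groups of 4 libraries screened, over 7 measures, 3 held a library far from the other 3, where chance gives about 1 in 20 groups. The total of male control 4 was 67.0 M counts, while the remaining male controls had 30.0 to 34.9 M, and its Sik1 level was the highest of the controls. Of the male controls only this library was counted with featureCounts, where each mate of a pair was counted on its own. Female stress 1 had 16.5 CPM of ENSRNOG00000007830 against 11.3 to 12.2 CPM in the other stressed females. Female control 4 had 8.48 CPM of the tested gene nearest to Sik1 on the low-coordinate side (10396621 to 10407554), against 6.65 to 6.89 CPM in the other female controls. No group held such a library for Sik1 itself (0 of 4 groups).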

How the results depend on the processing

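The log2 fold change of Sik1 kept its sign in every alternative run. It was 1.31 to 1.60 for stress in females and 0.61 to 0.63 in males over 8 other settings, and 1.31 to 1.63 and 0.54 to 0.70 with 1 library left out, lowest without female control 4 and without male stress 1. The average over the sexes was 0.96 to 1.12 and the sex difference of the stress effect 0.69 to 1.01 with 1 library left out. Only the difference between controls moved by more than the within-group SD of 0.24, to -0.45 without the featureCounts libraries; with 1 library left out it was -0.85 to -0.53, and the difference between stressed rats was 0.10 to 0.24.

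Counts of called genes, 9 in females, 17 in males, 48 on average and 0 for the sex difference, depended on the settings. DESeq2 called 26, 31, 101 and 1. Without a filter on low counts 105, 88, 207 and 36 were called. Without the featureCounts libraries 14, 5 and 29 were called for the first 3, and limma voom called 11 in males, where a fit to males alone called 27. With 1 library left out there were 6 to 13, 7 to 21, 28 to 56 and 0 to 0. Those that moved the male count past 1.5 times were male stress 1, 2 and 3 and male control 1, 2 and 3, and for the average female stress 2, female control 2, male stress 2 and 4 and male control 4. Of the neighbours of Sik1, 0 were called in every setting where they were counted. In the main fit 0.0632% of all tested genes were called in females, 0.119% in males and 0.337% on average. At such shares, 0 calls among so few neighbours carry little information. The neighbours were not counted in the fits with 1 library left out. The pathway lists could not be run, for want of gene names. The settings for neighbours by tool and filter, and for the sex differences, were chosen after seeing the data. The HTSeq libraries of control females had 44 to 81 counts of Sik1, with a counting error of 11.1% to 15.1%. No paired analysis was possible because the labels give each library a number of its own and tie none to a library of another group.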
